A study of Danio rerio with 19 samples.

Results

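The H3K9me3 peaks of old and young zebrafish brain at night were compared, from the peak list of 20-month-old (20 M) fish at ZT16 and that of 4-month-old (4 M) fish at ZT16. All peaks of both lists were used, 87948 at 20 M ZT16 and 55874 at 4 M ZT16, or 143822 of the 242100 peaks in the 6 lists of the series. The series profiled H3K9me3 by ChIP-seq in brain of fish aged 4, 12 and 20 months, each at ZT4 or ZT16 (4 h or 16 h after the lights came on), to ask how this mark changes with age and time of day. Each of these 6 groups had 3 libraries, and 1 further library was made with a GFP antibody. Fish of every group were kept for a week in 12 h of light and 12 h of dark before the brain was taken. The labels give no strain, genotype or sex, and the methods of the study name wild-type fish (SAT). The antibody against H3K9me3 came from Abcam, and the labelled tissue is brain with no cell type sorted, so the lists mix the cell types of the tissue.

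H3K9me3 is histone H3 carrying 3 methyl groups on lysine 9. SUV39H and SETDB1 enzymes deposit it, HP1 proteins bind it, and it marks constitutive heterochromatin at centromeres, telomeres and transposable elements as well as silenced genes. In zebrafish the long arm of chromosome 4 is rich in repeats, replicates late and is a well known block of such chromatin.

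Each list was made by peak calling on 3 libraries together, so there was 1 list a group, no value for a single library, no read count and no spread between replicates. No test between ages was possible, and every difference is a description of these lists. Absence from a list means that no peak was called, not that the site lacked the mark. The score of a peak, the value in column 5, ran from 10 to 552 (median 187) at 20 M ZT16 and from 10 to 189 (median 75) at 4 M ZT16. The median peak length was 73 bp at 20 M ZT16 (39 to 5798 bp) and 70 bp at 4 M ZT16 (48 to 3067 bp). The shortest peak allowed and the range of scores thus differed between the lists, and the number of reads given in the methods is not assigned to single libraries, so the depth behind each list is unknown. Scores were therefore not compared directly, but turned into a percentile, the share of peaks of the same list that scored lower, with ties counted to the middle. Intervals in brackets are Wilson 95% intervals, which cover counting error only.

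Nearly the whole 4 M ZT16 list was contained in the 20 M ZT16 list. A peak was called shared when at least 1 bp of it overlapped a peak of the other list. At 20 M ZT16, 55776 peaks were shared and 32172 (36.6%) were 20 M-only. The 20 M-only peaks covered 3.43 Mb and the shared 20 M ZT16 peaks 6.74 Mb. At 4 M ZT16, 376 peaks (0.673%) were 4 M-only and 55498 (99.3%) were shared. The number of 4 M-only peaks depended on the settings, with 148 at a score of at least 20, 44 at a score of at least 30 and 2741 with a reciprocal overlap of 50%. Exactly 1 peak of each list met at 54775 sites, which took in 62.3% of the 20 M ZT16 list and 98.0% of the 4 M ZT16 list. These are called paired sites below. Few peaks were split between ages: 147 of the 20 M ZT16 peaks overlapped more than 1 peak of the 4 M ZT16 list, and 431 of the 4 M ZT16 peaks overlapped more than 1 peak of the 20 M ZT16 list.

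The paired sites stood higher in the 20 M ZT16 list than in the 4 M ZT16 list, but their order among themselves was much the same. The median percentile was 68.4 at 20 M ZT16 and 50.3 at 4 M ZT16. The difference, 20 M minus 4 M, had a median of 15.9 percentile points, with 5th and 95th percentiles of -5.99 and 43.7 and an SD over sites of 15.9. It was above 0 at 47835 sites (87.3%) and below 0 at 6940. A percentile depends on what else is in its list, and the 20 M ZT16 list held 32172 more peaks outside the shared set, most of them low in the ranking. When the paired sites were ranked only among themselves, the median difference was 0.164 points (5th and 95th percentiles -26.9 and 26.3), with 27916 sites (51.0%) higher at 20 M ZT16 and 26857 lower. Ranking the same sites at both ages centres these differences near 0 by design. A change common to all paired sites would not appear in them. Spearman's rho between both percentiles was 0.851 over the 54775 sites, which share base sequence and mappability and are not independent. On single chromosomes rho ran between 0.826 and 0.879 and the median difference between 14.9 and 17.4 points.

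On whole-list percentiles the gap between the ages narrowed from weak to strong sites, and among the paired sites alone it was small throughout. Sites in the lowest 10 percentile points of the 4 M ZT16 list had a median percentile of 37.6 at 20 M ZT16 and 5.34 at 4 M ZT16, a median difference of 31.9 points. In the next bin the medians were 47.6 at 20 M ZT16 and 15.4 at 4 M ZT16, and the median difference was 32.5 points. From there it declined bin by bin, to 15.8 points between the 50th and 60th percentile and 3.57 points between the 80th and 90th. In the top 10 points the medians were 96.7 at 20 M ZT16 and 95.05 at 4 M ZT16, with a median difference of 0.971. Ranked among the paired sites alone, the median difference was 3.01 points in the lowest bin, 4.68 in the next, 0.227 between the 40th and 50th percentile and -3.32 between the 70th and 80th, and -0.372 in the top bin. Most of the gap at weak sites was therefore present only when the further peaks of the 20 M ZT16 list were counted. Ranks among the paired sites alone cannot show a change common to all of them. The bins were set by the 4 M ZT16 percentile, which is part of the difference. Positive medians in low bins and negative ones in high bins were therefore favoured by the binning. The strongest sites of the 4 M ZT16 list also stood at the top of the 20 M ZT16 list.

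**Figure D1:**
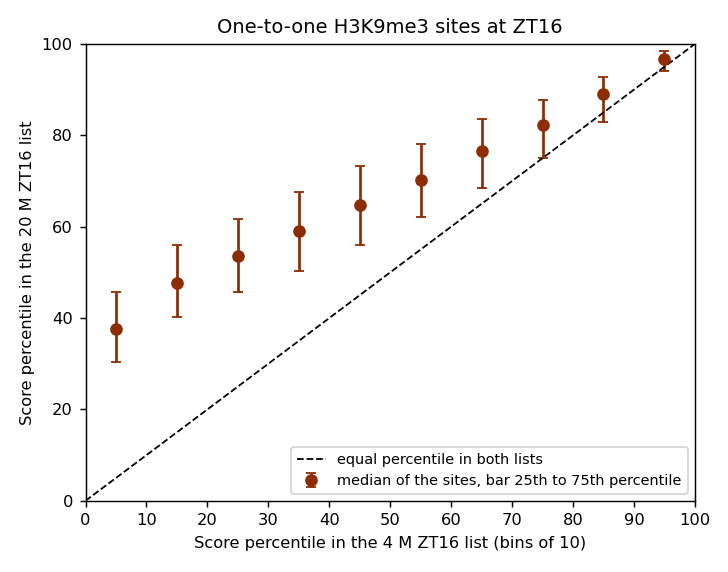
Percentile of the score in the 20 M ZT16 list (y axis) against that in the 4 M ZT16 list (x axis, bins of 10 points) at the 54775 paired sites; points are medians, bars run from the 25th to the 75th percentile over sites, and the dashed line marks equal percentiles. The medians lie above the line in every bin, by 31.9 points in the lowest bin and 0.971 in the highest, whereas ranks among the paired sites alone gave medians of 3.01 and -0.372 in these bins.

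A shift of 30 or more percentile points upwards at 20 M ZT16 was seen at 12011 paired sites (21.9%), and one of 30 or more downwards at 92 (0.168%). At 50 points the counts were 1097 up (2.003%) and 5 down. This imbalance goes with the different make-up of the lists. Ranked among the paired sites alone, 1822 sites (3.33%) shifted upwards by 30 or more points and 1997 (3.65%) downwards, and at 50 points the counts were 118 up and 201 down. Such ranks hold the sum of rises equal to the sum of falls. The 5 sites with the largest upward shift stood between percentiles 44.1 and 71.7 in the 4 M ZT4 list. The first, at chr16:29014278-29014384 (107 bp), stood at percentile 88.8 at 20 M ZT16 and 6.29 at 4 M ZT16, a difference of 82.5 points. In the 4 M ZT4 list the same site stood at 65.4. The site at chr12:36908622-36908713 stood at 84.1 at 20 M ZT16 and 3.805 at 4 M ZT16, and at 63.9 in the 4 M ZT4 list.

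The site at chr15:6755739-6755857 stood at 80.5 at 20 M ZT16 and 3.805 at 4 M ZT16. It was the only 1 of the 5 that was also listed at 20 M ZT4, where it stood at 10.2, and it stood at 44.1 at 4 M ZT4. On the long arm of chromosome 4, chr4:58119930-58120008 stood at 89.3 at 20 M ZT16 and 14.1 at 4 M ZT16, with 71.7 at 4 M ZT4. The fifth, chr9:53354059-53354163, stood at 84.1 at 20 M ZT16 and 9.80 at 4 M ZT16, with 58.7 at 4 M ZT4. In all 5, the value at 4 M ZT16 was the lowest of 20 M ZT16, 4 M ZT16 and 4 M ZT4. The sites were picked for a low value at 4 M ZT16 beside a high one at 20 M ZT16, so this was favoured by the choice.

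The 5 sites with the largest downward shift had a different shape. At each of them a long 20 M ZT16 peak covered a short 4 M ZT16 peak. At chr17:48698712-48699431 the 20 M ZT16 peak was 720 bp long and stood at percentile 25.1, and the 4 M ZT16 peak was 102 bp long and stood at 84.7. At chr18:40677754-40678171 the 20 M ZT16 peak was 418 bp long at percentile 31.4, and the 4 M ZT16 peak 74 bp long at 84.7. At chr10:41136864-41137285 the 20 M ZT16 peak was 422 bp long at percentile 26.9, and the 4 M ZT16 peak 62 bp long at 78.1. The remaining 2 were on unplaced scaffold Un_KN150703v1 (27209 to 27750; 542 bp and percentile 33.0 at 20 M ZT16, 96 bp and 84.1 at 4 M ZT16) and at chr13:36344515-36345040 (526 bp and 22.9 at 20 M ZT16, 78 bp and 73.3 at 4 M ZT16). Over all paired sites, 284 had a 20 M ZT16 peak at least 4 times as long as the 4 M ZT16 peak, and these had a median difference of 8.43 points on whole-list percentiles, against 15.9 at all paired sites, and of -14.3 points when ranked among the paired sites alone. How peak width entered the score was not tested.

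Peaks at the same site were mostly longer at 20 M ZT16. The median length at paired sites was 77 bp at 20 M ZT16 and 69 bp at 4 M ZT16. The 20 M ZT16 peak was the longer at 48792 sites (89.1%), equal at 2061 and shorter at 3922. Over all peaks of each list, score and length went together more loosely at 20 M ZT16 (rho 0.315) than at 4 M ZT16 (rho 0.517). The first value takes in the 20 M-only peaks, and rho of score and length was not computed for the paired sites. The ranks of both ages matched best at wide sites. Where the 4 M ZT16 peak was under 50 bp, rho was 0.326, at 50 to 74 bp it was 0.682, and at 150 to 299 bp it was 0.944. At 300 bp or more it was 0.932, with median percentiles of 97.3 at 20 M ZT16 and 95.2 at 4 M ZT16.

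The ZT4 lists were set beside the paired sites. At the 54462 sites with exactly 1 peak in the 20 M ZT16, 4 M ZT16 and 4 M ZT4 lists, rho was 0.849 between 20 M ZT16 and 4 M ZT16, 0.890 between 20 M ZT16 and 4 M ZT4, and 0.852 between both 4 M lists. By this measure the order at 20 M ZT16 was nearer to that of young brain at ZT4 than to that of young brain at ZT16. The 4 M ZT16 list had a like rho with the list of its own age, 0.852. Its lower rho was thus not particular to the comparison with 20 M ZT16. The 4 M ZT16 list held 55874 peaks and the 4 M ZT4 list 70317, and how the make-up of the lists entered rho was not tested. At the 18136 sites that were also in the 20 M ZT4 list, rho was 0.860 between 20 M ZT16 and 4 M ZT16, 0.459 between 20 M ZT16 and 20 M ZT4, and 0.903 between 20 M ZT16 and 4 M ZT4. The 20 M ZT4 list also had a low rho with the young lists, 0.551 with 4 M ZT16 and 0.530 with 4 M ZT4. Between both 4 M lists it was 0.872 at these sites. The low value was thus not particular to the pair of 20 M lists.

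The 20 M-only peaks were low in the ranking and short. Their median score was 68, against 239 for the shared 20 M ZT16 peaks, and their median percentile was 18.96 (25th to 75th percentile 9.06 to 29.2), against 68.4 (51.8 to 84.1). Their highest percentile was 86.6. Their median length was 54 bp (25th to 75th percentile 45 to 117 bp), against 77 bp (66 to 103 bp). Peaks under 50 bp made up 12483 (38.8%) of the 20 M-only peaks and 607 (1.09%) of the shared ones. At the other end, 46 of the 20 M-only peaks (0.143%) and 91 of the shared ones (0.163%) were 1 kb or longer, so the widest peaks made up a similar share of both sets. Of the 46, 9 were listed at 4 M ZT4.

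The share of 20 M ZT16 peaks that were 20 M-only fell steeply along the ranking. From the lowest to the highest 10 percentile points it was 97.6, 96.1, 85.8, 54.4, 23.0, 6.97, 1.41, 0.146, 0.0115 and 0%. Its course along length had a dip in the middle. It was 98.9% under 45 bp and 91.1% at 45 to 49 bp, lengths close to or under the 48 bp of the shortest 4 M ZT16 peak. It was 12.0% at 60 to 74 bp and 10.3% at 75 to 99 bp, and 48.2% at 150 to 199 bp. At 1 kb or more it was 33.6%.

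**Figure D2:**
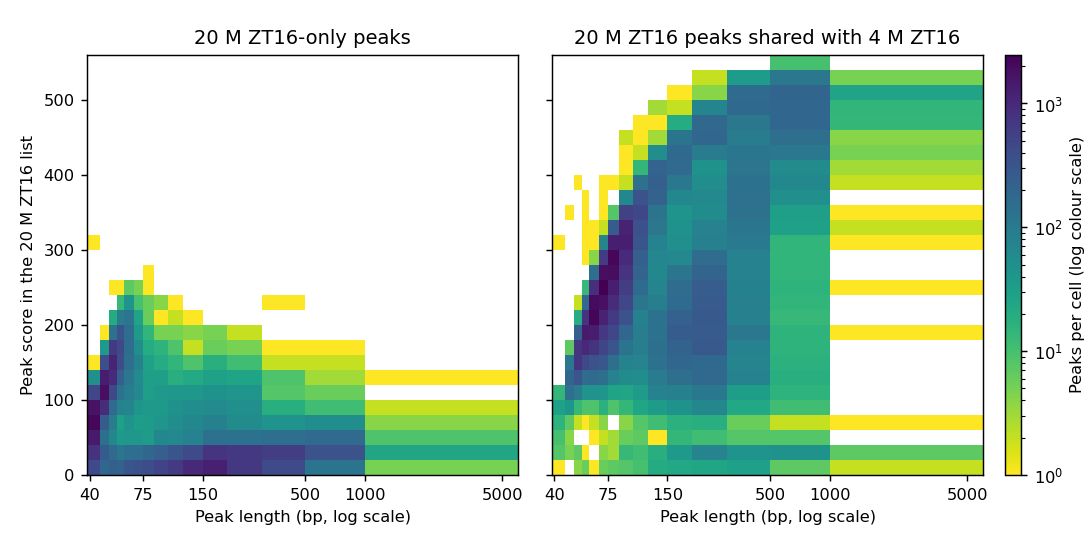
Number of peaks (colour, log scale) by peak length in bp (x axis, log scale) and score (y axis) in the 20 M ZT16 list, on the left for the 32172 peaks with no 4 M ZT16 peak and on the right for the 55776 shared ones. The 20 M-only peaks gather in a short, steep band under 75 bp and in a flat band of longer peaks scored under 40, and the shared peaks lie mostly above both.

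Length and score divided the 20 M-only peaks into classes, with limits of 75 bp and a score of 40 that were set after the plot of length against score had been seen. Short peaks scored 40 or more were the most frequent, 17757 or 55.2% of the 20 M-only peaks, with a median length of 47 bp and a median score of 109. Long peaks scored under 40 came next, with 8764 or 27.2%, a median length of 161 bp and a median score of 18. Short peaks under 40 numbered 3406 (10.6%), and long peaks of 40 or more 2245 (6.98%). The large classes differed in where else they were seen. Of the short peaks scored 40 or more, 59.5% (58.8 to 60.2) overlapped a peak of the 4 M ZT4 list, and of the long peaks under 40, 7.76% (7.22 to 8.34). In the smaller classes it was 44.5% for long peaks of 40 or more and 3.61% for short peaks under 40. This share thus differed more by score than by length. The long, low peaks also lay farther from shared peaks, at a median of 13174 bp against 7564 bp. Short peaks under 40 lay at 10753 bp, and long peaks of 40 or more at 7756 bp. On chromosome 4 were 10.04% of the long, low peaks and 5.02% of the short peaks of 40 or more. Of all 20 M ZT16 peaks, shared ones included, 10.98% were on chromosome 4 at scores of 10 to 19 and 11.28% at 20 to 39. At 40 to 59 it was 5.85%, so this share went with the score in the whole list.

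Many sites missing at 4 M ZT16 were listed in brain of the same young age at the other time. Of the 20 M-only peaks, 12366 (38.4%, 37.9 to 38.97) overlapped a 4 M ZT4 peak, as did 99.7% of the shared 20 M ZT16 peaks. The share grew with the score, at 5.73% for scores of 10 to 19, 20.6% for 60 to 79, 70.1% for 100 to 124 and 96.8% for 150 to 174. For scores of 200 to 249 it was 99.7%, and of the 7 that scored 250 or more 6 were listed at 4 M ZT4. The 12316 peaks of the 4 M ZT4 list at these sites stood low too, at a median percentile of 15.7 (25th to 75th percentile 9.44 to 24.8), against 60.9 (40.1 to 80.5) for those at shared sites. Only 156 (0.485%) were listed at 20 M ZT4, the same age at the other time, and 19 at 12 M ZT16. None overlapped the 29 peaks of 12 M ZT4. The lists differed in size, with 70317 peaks at 4 M ZT4, 19177 at 20 M ZT4 and 8755 at 12 M ZT16. The overlaps with 20 M-only peaks fell in the same order as list size, and the part that list size had in them was not tested. Of the shared 20 M ZT16 peaks, 33.7% were in the 20 M ZT4 list. In none of the other 5 lists were 19725 (61.3%) of the 20 M-only peaks.

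**Figure D3:**
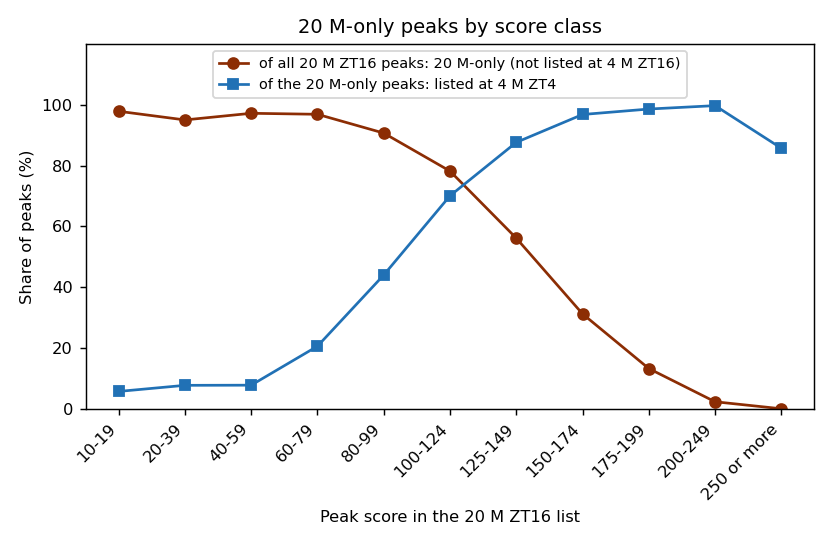
Share in percent (y axis) by score class in the 20 M ZT16 list (x axis) of 20 M ZT16 peaks that had no 4 M ZT16 peak (circles) and, of those, of peaks that were listed at 4 M ZT4 (squares). The first share drops to 0.0285% at scores of 250 or more, and the second climbs to 99.7% at 200 to 249.

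The 5 highest-scoring 20 M-only peaks were 43 to 75 bp long. The highest lay on unplaced scaffold Un_KN150506v1 from 14227 to 14269 (43 bp), scored 300, stood at percentile 86.6 and was not listed at 4 M ZT4. The next 4 were all listed at 4 M ZT4. They were chr8:691941-692015 (score 262, percentile 76.2 at 20 M ZT16 and 50.6 at 4 M ZT4), chr16:43253973-43254043 (score 257), chr21:42902238-42902302 (score 256) and Un_KN149898v1 from 4453 to 4505 (score 256). The longest 20 M-only peaks scored low and were in no ZT4 list. These were chr5:820773-826538 (5766 bp, score 48), chr5:832652-837829 (5178 bp, score 47), which lie close together near the start of chromosome 5, and Un_KN150411v1 from 135 to 5179 (5045 bp, score 33).

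The 376 peaks of the 4 M ZT16 list with no 20 M ZT16 peak were few and weak. Their median score of 15.5 put them at a median percentile of 0.689 of the 4 M ZT16 list, and their median length was 133 bp. A score under 20 was found for 272 of them (72.3%). Of the 376, 103 (27.4%) were listed at 4 M ZT4 and 28 at 20 M ZT4. Chromosome 4 beyond 25 Mb held 93 of them, among 1760 peaks of the 4 M ZT16 list there. The first 25 Mb of that chromosome held none, among 828 peaks. The highest-scoring was chr4:32199543-32199593, with a score of 60 at percentile 28.4, followed by Un_KN150017v1 from 8741 to 9030 (score 56) and chr7:4001110-4001157 (score 48). Next came Un_KN149778v1 from 52086 to 52215 (score 48) and chr4:35578325-35578389 (score 46).

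The lists were also cut to the same length. With the 55874 highest-scoring 20 M ZT16 peaks, all scored 144 or more, 4119 (7.37%) were absent from the 4 M ZT16 list, and 4259 (7.62%) of the 4 M ZT16 peaks were absent from the cut list. Of these 4259 peaks, 3883 had a partner among the 20 M ZT16 peaks under the limit. Lists of equal size with mostly one-to-one overlap must give near-equal counts on both sides, so the likeness of 4119 and 4259 is no result. Of the 32172 20 M-only peaks of the whole list, 4119 were in the cut list and the others were below it.

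The 20 M-only peaks were spread over the genome between the shared ones. The gap to the nearest shared peak had a median of 9122 bp (25th to 75th percentile 3126 to 20482 bp). From a shared peak to the nearest other shared peak it was 6545 bp (1956 to 15360 bp). Within 1 kb of a shared peak lay 3192 of the 20 M-only peaks (10.01%), against 15.9% of the shared peaks. More than 50 kb away lay 1774 (5.57%), against 2.45%, and 299 were on scaffolds without a shared peak. The most isolated was chr5:71715780-71715873, 249331 bp from the nearest shared peak, with a score of 19. Next were chr4:19819-19919 (233031 bp away, score 22) and chr24:42106335-42106497 (229870 bp away, score 14).

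Chromosome 4 stood out among the chromosomes. Of its 4635 peaks at 20 M ZT16, 2138 were 20 M-only, a share of 46.1% (44.7 to 47.6). On the other 24 numbered chromosomes together the share was 35.9% (35.6 to 36.2), with a range of 31.8% on chromosome 14 to 39.3% on chromosome 3. On unplaced scaffolds 1126 of 2788 peaks were 20 M-only (40.4%, 38.6 to 42.2). Chromosome 4 carried more low-scoring peaks, with 30.2% of its 20 M ZT16 peaks under a score of 40 against 13.2% on the 24. Among peaks scored 40 or more, 30.5% were 20 M-only on chromosome 4 and 26.4% on the 24. Among those under 40, the order was the opposite, with 82.1% on chromosome 4 and 98.6% on the 24.

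The share on chromosome 4 came mainly from its long arm. Beyond 25 Mb, 1699 of 3363 peaks were 20 M-only (50.5%), and 37.6% of the peaks scored under 40. In the first 25 Mb, 439 of 1272 were 20 M-only (34.5%), and 10.8% scored under 40. The 4 M-only peaks were also more frequent beyond 25 Mb, with 93 of 1760 peaks of the 4 M ZT16 list, against 376 of 55874 in the whole list. Mappability of this repeat-rich arm was not tested. Ends of chromosomes also had a higher 20 M-only share. Within 100 kb of an end, taken as base 1 or the last peak of any list, 166 of 242 peaks were 20 M-only (68.6%). From 100 to 500 kb the share was 54.4%, from 500 to 2000 kb 45.04%, and farther inside 35.5%. The share of peaks scored under 40 went the same way, with 51.7, 34.4, 23.6 and 13.1% in these 4 zones.

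**Figure D4:**
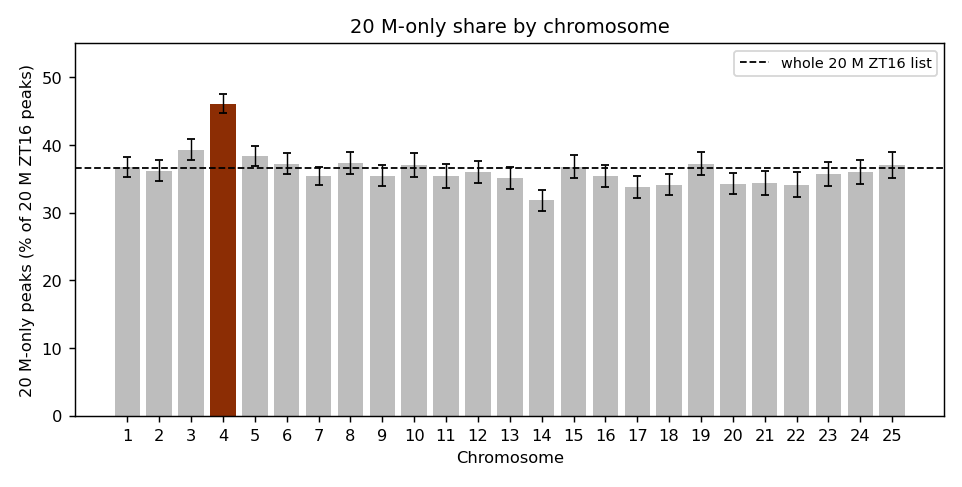
Share of 20 M ZT16 peaks that had no 4 M ZT16 peak (y axis, percent) on each numbered chromosome (x axis); bars start at 0, error lines are Wilson 95% intervals for counting error, and the dashed line is the whole list at 36.6%. Chromosome 4 (dark) stands at 46.1%, and the other 24 lie between 31.8 and 39.3%.

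In windows of 1 Mb the 20 M-only peaks were present everywhere. All 1352 windows with 20 M ZT16 peaks held at least 1, with a median of 21 and a range from the 5th to the 95th percentile of 10 to 40. Numbers of 20 M-only and shared peaks in a window were loosely related (rho 0.347 over the windows). In the 1239 windows with 40 or more 20 M ZT16 peaks, the 20 M-only share had a median of 34.9%, and it was over 60% in 36 of them. The window at 31 to 32 Mb of chromosome 4 had the most, 130 of 150 peaks (86.7%), where the 4 M ZT16 list held 21 peaks. The window at 61 to 62 Mb of the same arm had 116 of 206, but 93 of these 116 were listed at 4 M ZT4, and the 4 M ZT16 list held 104 peaks there. The next highest numbers were at 20 to 21 Mb of chromosome 6 (103 of 128, 80.5%) and at 35 to 36 Mb of chromosome 3 (100 of 133, 75.2%).

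Further windows with many were at 13 to 14 Mb of chromosome 25 (91 of 135, 67.4%), 56 to 57 Mb of chromosome 9 (81 of 97, 83.5%), 20 to 21 Mb of chromosome 1 (87 of 112, 77.7%) and 43 to 44 Mb of chromosome 1 (79 of 102, 77.5%). In these 4 windows and in those on chromosomes 6 and 3, between 5 and 16 of the 20 M-only peaks were listed at 4 M ZT4, and their median percentile was 6.67 or 7.58. The lowest shares were at 16 to 17 Mb of chromosome 16 (6 of 54, 11.1%), 30 to 31 Mb of chromosome 20 (7 of 48, 14.6%) and 41 to 42 Mb of chromosome 6 (8 of 54, 14.8%). At 49 to 50 Mb of chromosome 9, a window rich in peaks, 15 of 95 were 20 M-only (15.8%). At 17 to 18 Mb of chromosome 10, 8 of 46 were (17.4%).

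Some of the windows with the highest shares held short stretches packed with weak 20 M-only peaks. Chaining 20 M-only peaks that lay at most 5 kb apart, and keeping chains of 20 peaks or more, limits set after the windows had been seen, gave 41 dense runs. They lay on 18 numbered chromosomes and 1 scaffold, 5 of them on chromosome 4. The runs were 19.6 to 101.4 kb long (median 33.8 kb), 1.58 Mb in all, and held 1479 peaks or 4.597% of the 20 M-only peaks. No shared peak lay inside 34 of them, and no 4 M ZT16 peak inside 33. The 4 M ZT4 list held most of the peaks of 2 runs, both on the long arm of chromosome 4. These were chr4:61799349-61842383, with 39 of its 42 peaks listed at 4 M ZT4, and chr4:51553193-51592428, with 31 of 35. Of the 36 windows over 60%, 14 held peaks of a run and 22 did not, and 24 of the 36 were still over 60% without the peaks in runs. At 20 to 21 Mb of chromosome 1 the share outside runs was 21.9% (7 of 32), and at 35 to 36 Mb of chromosome 3 it was 31.25% (15 of 48). At 31 to 32 Mb of chromosome 4 it was still 71.8% (51 of 71), and at 56 to 57 Mb of chromosome 9 63.6% (28 of 44).

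The other 39 runs had few peaks at 4 M ZT16, but not at 4 M ZT4. They held 1402 of the 20 M-only peaks in 1.501 Mb, 934 per Mb, against 23.2 per Mb over the genome. This high density was set by the chaining rule itself and is no separate result. The 4 M ZT16 list had 6 peaks in them, 4.00 per Mb against 40.5 over the genome. The 4 M ZT4 list had 93, or 62.0 per Mb against 50.9 over the genome, and the 20 M ZT4 list had 8, or 5.33 per Mb against 13.5. Over all 41 runs, 1.58 Mb, there were 39 peaks of 4 M ZT16, 182 of 4 M ZT4 and 37 of 20 M ZT4. The 2 runs left out, set apart by their 4 M ZT4 peaks, held most of the 4 M ZT16 and 20 M ZT4 peaks. The low rates thus hold for the 39 runs only. Of the 1402 peaks, 72 overlapped a 4 M ZT4 peak. A depletion of 4 M ZT16 peaks follows in part from the way runs were built, since a shared peak does not extend a run. The largest runs were chr3:35738925-35825056 with 85 peaks, chr1:20325398-20426826 with 80, chr1:43561815-43630256 with 67 and chr7:58248512-58317118 with 64. After these came chr6:45292535-45357286 with 62, chr19:20303372-20369944 with 58, chr4:31907640-31969555 with 56 and chr9:56443601-56504198 with 53. The 4 M ZT16 list had 1 peak in the run on chromosome 19 and none in the other 7.

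**Figure D5:**
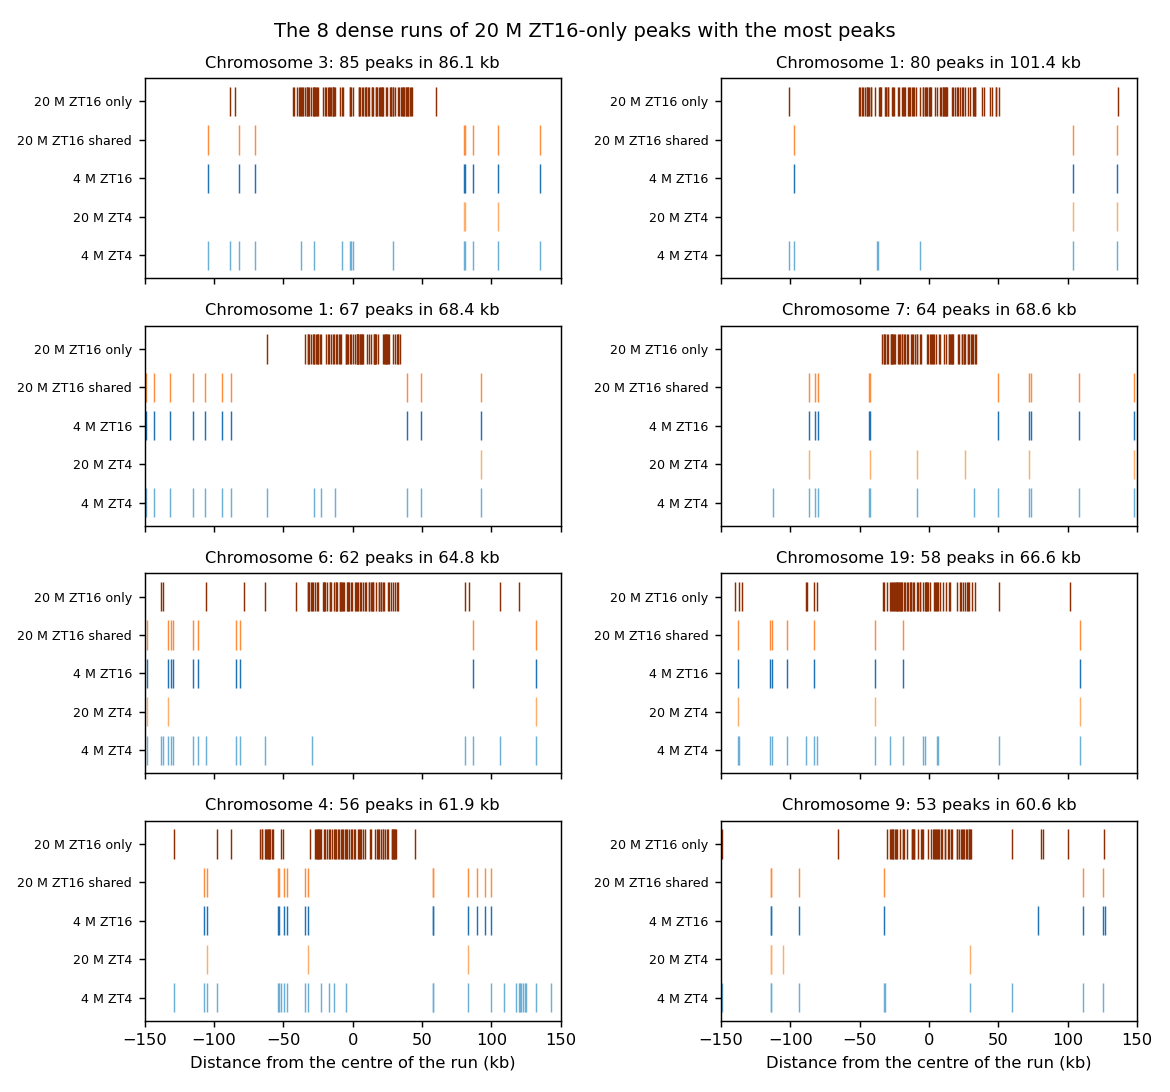
Peaks (ticks) of 5 sets around the 8 dense runs with the most 20 M-only peaks, by distance in kb from the centre of the run (x axis); from top to bottom, 20 M-only peaks, shared 20 M ZT16 peaks, 4 M ZT16, 20 M ZT4 and 4 M ZT4 peaks. The 53 to 85 peaks of each run stand together, and 4 M ZT16 peaks lie mostly outside.

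Peaks in the runs were long and very weak. Their median length was 154 bp inside runs and 53 bp for the other 20 M-only peaks, and their median score 18 against 73. A score under 40 was found for 98.9% inside and 34.9% outside, and one under 20 for 63.4% inside and 19.4% outside. If the score is on the scale MACS2 writes, that is -10 times log10 of q, the stated FDR of 0.01 lies at a score of 20, so most peaks in the runs would lie above that FDR. Every run kept some peaks of 20 or more, 3 to 32 each (median 12). With only peaks of 20 or more in both lists, 1 run was left. With a score of 30 or more, and with lists of the same length, there was none. Built from whole lists, without regard to sharing, there were 48 such runs at 20 M ZT16 and 3 at 4 M ZT16. Cut to the same number of peaks as the 4 M ZT16 list, the 20 M ZT16 list gave 0. That cut kept only 20 M ZT16 peaks scored 144 or more, while the 4 M ZT16 list kept its low scores, so it cannot set the ages against each other. The ZT4 lists gave 1 at 20 M and 7 at 4 M, and none was found in the 12 M lists. Copy number, repeats and mappability of these stretches were not tested. Of the 1337 loci placed by the study, 358 of them annotated, 4 unannotated ones overlapped a run (XLOC_001069, XLOC_017126, XLOC_054104 and XLOC_046388), and no annotated one did. The runs took up 1.58 Mb of 1340 Mb, so these counts are too small to set annotated against unannotated loci.

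Genes were taken from lists of muscle, energy, matrix, photoreceptor, epithelium, blood and clock genes. Their positions come from the study's tables of loci whose expression differed with age or time of day, so they are not an independent choice. Loci of 92 of 109 genes were placed, with 3 kb on each side, and peaks in these flanks count as peaks at the gene. The placed loci ran from 1511 bp at trim63a to 288705 bp at nr1d4b. Of the 92 loci, 64 had a 20 M ZT16 peak and 39 a 20 M-only peak. That is 39 of 92, against a background of 39.7% among all 358 annotated loci. With no flank, 31 loci in place of 39 had a 20 M-only peak. At 8 of the 39 no 4 M ZT16 peak was listed. The 92 loci held 220 peaks at 20 M ZT16, of which 78 were 20 M-only (35.5%), against 36.6% in the whole list, and 35 of the 78 were listed at 4 M ZT4. The gene loci together were thus close to the background.

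Among genes of the sarcomere and contraction, 22 of 55 peaks were 20 M-only (40%), at 13 of 36 loci. Of these 22 peaks, 10 were listed at 4 M ZT4. The highest-scoring was chr23:20504020-20504079 at tnnc2, the calcium-binding troponin of fast muscle, with a score of 181 at percentile 48.0, and it was listed at 4 M ZT4. At ldb3a, a protein of the Z-disc, all 4 peaks were 20 M-only, with scores of 20 to 165 and no 4 M ZT16 peak. The peak scored 165 lay in the flank and was listed at 4 M ZT4. Its paralog ldb3b had 1 of 3 (score 126). At scn4ab, the voltage-gated sodium channel of skeletal muscle, 4 of 6 were 20 M-only (scores 78 to 141), and this locus also had the only 4 M-only peak of all the lists. Single 20 M-only peaks were found at trim55b, a muscle RING-finger protein (score 158), klhl31, a kelch-like protein (141), and srl, sarcalumenin of the sarcoplasmic reticulum (101). At actn3b, the alpha-actinin that links actin filaments, 2 of 4 peaks were 20 M-only (scores 55 and 95). The atrophy ubiquitin ligase fbxo32 had no 20 M-only peak. Its shared sites stood at percentiles 54.2 and 64.9 at 20 M ZT16, against 28.4 and 14.1 at 4 M ZT16. For paired sites of the same bins of the 4 M ZT16 list, the median at 20 M ZT16 was 53.5 and 47.6.

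In energy metabolism, 10 of 31 peaks were 20 M-only (32.3%), at 7 of 16 loci, and 3 of the 10 were listed at 4 M ZT4. At ampd1, the AMP deaminase of muscle, 4 of 5 were (scores 34 to 151). At ckma, the muscle creatine kinase, 1 of 3 was, chr5:36201881-36201942 (score 180, listed at 4 M ZT4). The longest was a peak of 506 bp at gpib, glucose-6-phosphate isomerase (score 41). The others were at adssl1, adenylosuccinate synthase (score 83), the creatine kinases ckmb (76) and ckmt2b (65), and pfkfb3, a regulator of glycolysis (53). Those at ckmt2b and pfkfb3 lay in the flank. All 4 peaks at the phosphofructokinase gene pfkmb were shared.

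In the extracellular matrix list, 19 of 47 peaks were 20 M-only (40.4%), at 6 of 9 loci, and 7 of the 19 were listed at 4 M ZT4. The fibrillar collagen gene col1a1b had 6 of 10, including chr12:3101805-3102594 of 790 bp (score 60), and 1 of the 6 was listed at 4 M ZT4. Its partner chain gene col1a2 had 2 of 7 (scores 68 and 134), and col11a1b 5 of 15 (scores 53 to 125). At postnb, periostin, 3 of 5 were 20 M-only, the highest at a score of 169 and listed at 4 M ZT4. The cartilage collagen gene col2a1a had 2 peaks (scores 20 and 83), both 20 M-only and both absent from the 4 M ZT4 list. At hapln1a, which links hyaluronan to proteoglycans, 1 of 5 was 20 M-only (score 112), and it lay in the flank.

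The smaller tissue lists had few peaks. For epithelium, 3 of 5 peaks were 20 M-only, at the genes of the desmosomal protein plakophilin pkp3a (chr25:22061793-22061854, score 207, percentile 57.0), of periplakin ppl (score 82) and of envoplakin evpla (score 79). Those at pkp3a and ppl were listed at 4 M ZT4. For blood and iron it was 1 of 8, at the transferrin receptor gene tfr1b (score 95). This peak lay in the flank and was listed at 4 M ZT4. The 3 peaks at slc4a1a, the anion exchanger of red cells, were shared. Of 5 photoreceptor genes only rom1a had a peak, which was shared.

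Of 32 clock genes 15 were placed, and 17 were not analysed here. At the 15 loci 23 of 73 peaks were 20 M-only (31.5%), at 9 loci, and 12 of the 23 were listed at 4 M ZT4. At clocka, the activator of the loop, 3 of 7 were 20 M-only. The highest was chr20:22171722-22171774 with a score of 195 at percentile 52.8, which was listed at 4 M ZT4. At per2, a repressor of the loop that light induces in zebrafish, 2 of 5 were (scores 98 and 179), both listed at 4 M ZT4. The other repressor genes had 1 of 4 at per3 (score 99) and 1 of 1 at bhlhe41 (score 130). The locus of bhlhe41 was the only clock locus with a 20 M-only peak and no 4 M ZT16 peak. This peak lay in the flank, outside the locus itself, and was listed at 4 M ZT4. No 20 M-only peak was found at cry1a, arntl2 or nr1d2b, and no peak in either list at per1b, nr1d1 or bhlhe40.

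The most clock-locus peaks were at nr1d4b, a gene of the Rev-erb family of nuclear receptors that repress transcription, whose placed locus is 288705 bp long. Of its 20 peaks, 9 were 20 M-only. The highest was chr11:2078634-2078690 (score 197, percentile 53.5), and 5 of the 9 were listed at 4 M ZT4. The weakest stood together from 2050005 to 2053981 of chromosome 11, where 5 peaks scored 16 to 21. Shared peaks of the same locus reached percentile 99.8 at 20 M ZT16 and 99.3 at 4 M ZT16, at chr11:2190126-2190875. The related genes nr1d2a and nr1d4a had 1 of 5 (score 89) and 2 of 16 (scores 18 and 56). The peak at nr1d2a lay in the flank. At tefb, a PAR bZIP output gene of the clock, 3 of 6 were 20 M-only (scores 28 to 137). At each of the clock loci with a 20 M-only peak except bhlhe41, shared peaks were listed beside the 20 M-only ones.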

How the data were processed

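H3K9me3 ChIP-seq peak lists of zebrafish brain at 20 M ZT16 and 4 M ZT16, each made from 3 libraries, were compared. Single-end reads of 50 bp had been aligned by the authors with Bowtie2 (genome GRCz10), and MACS2 (version 2.2.1 in the submitters' processing notes) had called peaks on the triplicate BAM files of a group, at a stated FDR of 0.01. The control used in the call is not given in the sources used here. Each deposited BED file of 6 columns gives a score for every peak in column 5, a whole number from the authors' peak caller whose scale is not named. The score was used only for ranks within a list and for cuts.

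Printed positions are 1-based (GRCz10). Shared peaks, paired sites, mid-rank percentiles, gaps and windows of 1 Mb were computed in Python 3.11.15 (pandas 2.3.3, numpy 2.4.6, scipy 1.17.1), and figures with matplotlib 3.10.9. The overlap code found 3000 of 3000 planted overlaps in 5000 simulated intervals and was checked against bedtools 2.31.1. No test between groups was made, since each group has 1 pooled list, and depth per library is unknown. Gene loci are the GRCz10 positions in the study's supplementary tables (1337 loci, 358 annotated), with 3 kb on each side, and none of the values in those tables was used. A RefSeq table served for 1 synonym, cry1a for cry1aa.

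Members and gene lists were chosen with earlier results of these data known. Named were the 5 windows with the most 20 M-only peaks and the 5 with the highest and 5 with the lowest share among windows of 40 or more peaks, the 5 highest-scoring, 3 longest and 3 most isolated 20 M-only peaks, the 5 highest-scoring 4 M-only peaks, the 5 largest shifts in each direction, and of each gene list at most 8 members with a 20 M-only peak, by falling score. The genes fbxo32, pfkmb, slc4a1a, rom1a and the clock genes without a 20 M-only peak were named in addition, after their values had been seen, as were the limits of length and score, the zones of chromosomes and the dense runs. Alternatives were score cuts of 20 and 30, a reciprocal overlap of 50%, lists of equal size, numbered chromosomes only, no chromosome 4, nearness or merging within 1 kb, and flanks of 0 or 10 kb. Annotated features and sequences of peaks, and transcripts outside those tables, were not analysed here.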

Additional observations from a re-analysis of the deposited data

Results flagged for a closer look

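With the lists as deposited, the difference between the ages had opposite signs at ZT16 and ZT4, and the difference between the times was not tested, since each group has 1 pooled list. Counted as peaks, the log2 ratio of 20 M over 4 M was 0.65 at ZT16 and -1.87 at ZT4. The number of dense runs built from whole lists, 20 M minus 4 M, was 45 at ZT16 and -6 at ZT4. With lists of equal size at each time both signs turned, to -3 at ZT16 (0 runs at 20 M and 3 at 4 M) and 1 at ZT4 (1 run at 20 M and 0 at 4 M). Only the longer list was cut, at ZT16 to 20 M peaks scored 144 or more. Of the 20 M-only peaks in runs, 98.9% scored under 40, so this cut left little room for a run. At ZT4 the 4 M list was the one cut. The turned signs therefore allow no conclusion on age.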

How the results depend on the processing

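No SD, leave-one-out value or test was possible, because each list pools 3 libraries. No paired analysis was possible because the lists carry no value for single libraries. Depth and pull-down efficiency are not recorded in the lists and cannot be told apart from age. The 17 results were recomputed in 76 alternative values, of which 36 stayed within 1.5 times of a count, within the 95% interval of a median or share or within 0.05 of a rho, 38 moved and 2 changed sign. The intervals are narrow with this many peaks, so small shifts count as moved. Apart from the peaks that an alternative itself removes, the cause was not tested.

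With a score of at least 20 in both lists, 148 peaks were 4 M-only in place of 376, the median percentile difference was 13.6 points in place of 15.9, and the 20 M-only peaks had a median percentile of 16.2 in place of 18.96, a median length of 51 bp in place of 54 bp and a median distance of 8468 bp in place of 9122 bp. Chromosome 4 then held 6.08% of them in place of 6.65%, 47.6% in place of 38.4% were listed at 4 M ZT4, and 1 dense run was left of 41. With a score of at least 30 the values in the same order were 44 peaks, 12.2 points, 14.9, 49 bp, 7940 bp, 5.32%, 55.4% and 0 runs. With a reciprocal overlap of 50%, 2741 peaks were 4 M-only, the median difference was 16.3 points, and the 20 M-only peaks had a median percentile of 20.1, a length of 56 bp, a distance of 9519.5 bp and a share of 42.8% at 4 M ZT4. When both lists had the same length, 4119 peaks were 20 M-only in place of 32172 and 4259 were 4 M-only, the median difference was 0.0179 points, the length was 55 bp, the distance 8019 bp, the share on chromosome 4 5.49% and the share at 4 M ZT4 97.0%, and 10 named loci in place of 39 and 0 dense runs were left. Ranked among the paired sites alone, the median difference was 0.164 points, and 1822 sites in place of 12011 rose and 1997 in place of 92 fell by 30 points or more. Without chromosome 4 the median percentile was 18.4 and the median length 53 bp. Dense runs, whose alternatives were chosen after seeing the data, numbered 17 with gaps of at most 2 kb and 107 with at least 10 peaks. The numbers of runs built from whole lists, 20 M minus 4 M, were -3 at ZT16 in place of 45 and 1 at ZT4 in place of -6 with lists of equal size, an alternative also chosen after seeing the data, as were the re-ranked shifts of 30 points. Equal size was reached by cutting the low scores of the longer list only, so these changes of sign allow no conclusion on age.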
